A study of Mus musculus with 2 samples.

Results

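The genes of mitochondrial protein import and membrane organization were described in 2 total RNA-seq libraries of mouse bone marrow progenitors. Members were the protein-coding genes whose symbol begins with Timm or Tomm and a digit, together with Samm50, Immt, Chchd3, Chchd4, Pam16, Grpel1, Grpel2, Pmpca, Pmpcb, Oxa1l, Phb and Phb2. The rule used names and no measured value, and it gave 37 genes of the 21474 protein-coding genes and 43346 Ensembl genes in the tables. Both libraries are labelled megakaryocyte progenitor cell (CFU-Meg, the colony-forming precursor of the platelet-releasing megakaryocyte). Per the labels, the cells were primary cells of male adult C57BL/6J mice aged 5 to 6 weeks, with no treatment or altered allele named, and the input to a library was 1 ng of RNA. The size ranges of replicates 1 and 2 were 149 to 512 and 157 to 497. The biosamples are separate but share a donor identifier. Differences between the libraries, and any p-value on them, may therefore be technical and need not reflect separate animals. With 1 group there is no contrast, and the comparisons are among members, with other gene lists and between the libraries. Values are TPM (transcript abundance relative to a fixed library total, a level per length that can be compared between genes), as mean ± SD with n = 2, unless another scale is named.

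Nearly all mitochondrial proteins are made in the cytosol and cross or enter the mitochondrial membranes through dedicated machines. The TOM complex forms the outer membrane entry gate, the TIM23 complex passes proteins with a presequence through the inner membrane, and the TIM22 complex inserts carrier proteins into it with the help of small TIM chaperones. An import motor then pulls the chain into the matrix, a peptidase removes the presequence, and MICOS and the prohibitins organize the inner membrane. A maturing megakaryocyte hands mitochondria on to its platelets.

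Depth and identity of the libraries set the frame for the levels. Replicate 1 held 82746658 expected counts and replicate 2 held 75652762, and the members took 113098 and 100700 of them. Transcripts of the mitochondrial genome took 26.8% and 28.8% of the expected counts. The megakaryocyte markers were low: the 12 genes had a median of 0.86 TPM, 3 of them reached 1 TPM in both libraries, their sum was 14.3 and 8.01 TPM, and Tubb1 and Gp6 were listed at 0 in both. Granulocyte markers were high, with a median of 1584 TPM over 9 genes and Mpo, the myeloperoxidase of neutrophil granules, at 5892 TPM. The 12 erythroid markers summed to 731 TPM in replicate 1 and 420 in replicate 2. Most of that difference was Car1, a carbonic anhydrase, at 512 and 242 TPM, while the globin genes Hbb-bt, Hbb-bs and Hba-a1 were higher in replicate 2, with log2 ratios of 1.12, 1.62 and 1.14. The libraries are therefore called by their label only, and the part of these other cells in the members' levels was not tested. In bulk RNA, fewer cells of a type and less RNA per cell cannot be told apart.

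The members formed a group of moderately to highly expressed genes with 2 exceptions. The median of their mean levels was 30.73 TPM. The median within replicate 1 alone was 29.44 and within replicate 2 alone 29.06 (SD 0.27), both under the median of the means. Of the 37 genes, 35 reached 1 TPM and 32 reached 10 TPM in both libraries, and 2 were listed at 0 in both. Among the 21461 protein-coding genes outside the mitochondrial genome, the median was 0.585 TPM and 24.1% reached 10 TPM in both libraries, against 86.5% of the members. From the highest to the lowest member above 0, Phb2 to Tomm40l, the level differed 17.6-fold. The 5 highest were Phb2 at 102.92 ± 11.7, Tomm5 at 99.9 ± 5.64, Timm23 at 99.7 ± 1.94, Tomm22 at 89.1 ± 7.38 and Tomm6 at 86.8 ± 8.82 TPM. The first 3 of these cannot be ordered, since their means lie within the SD of Phb2.

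**Figure D1:**
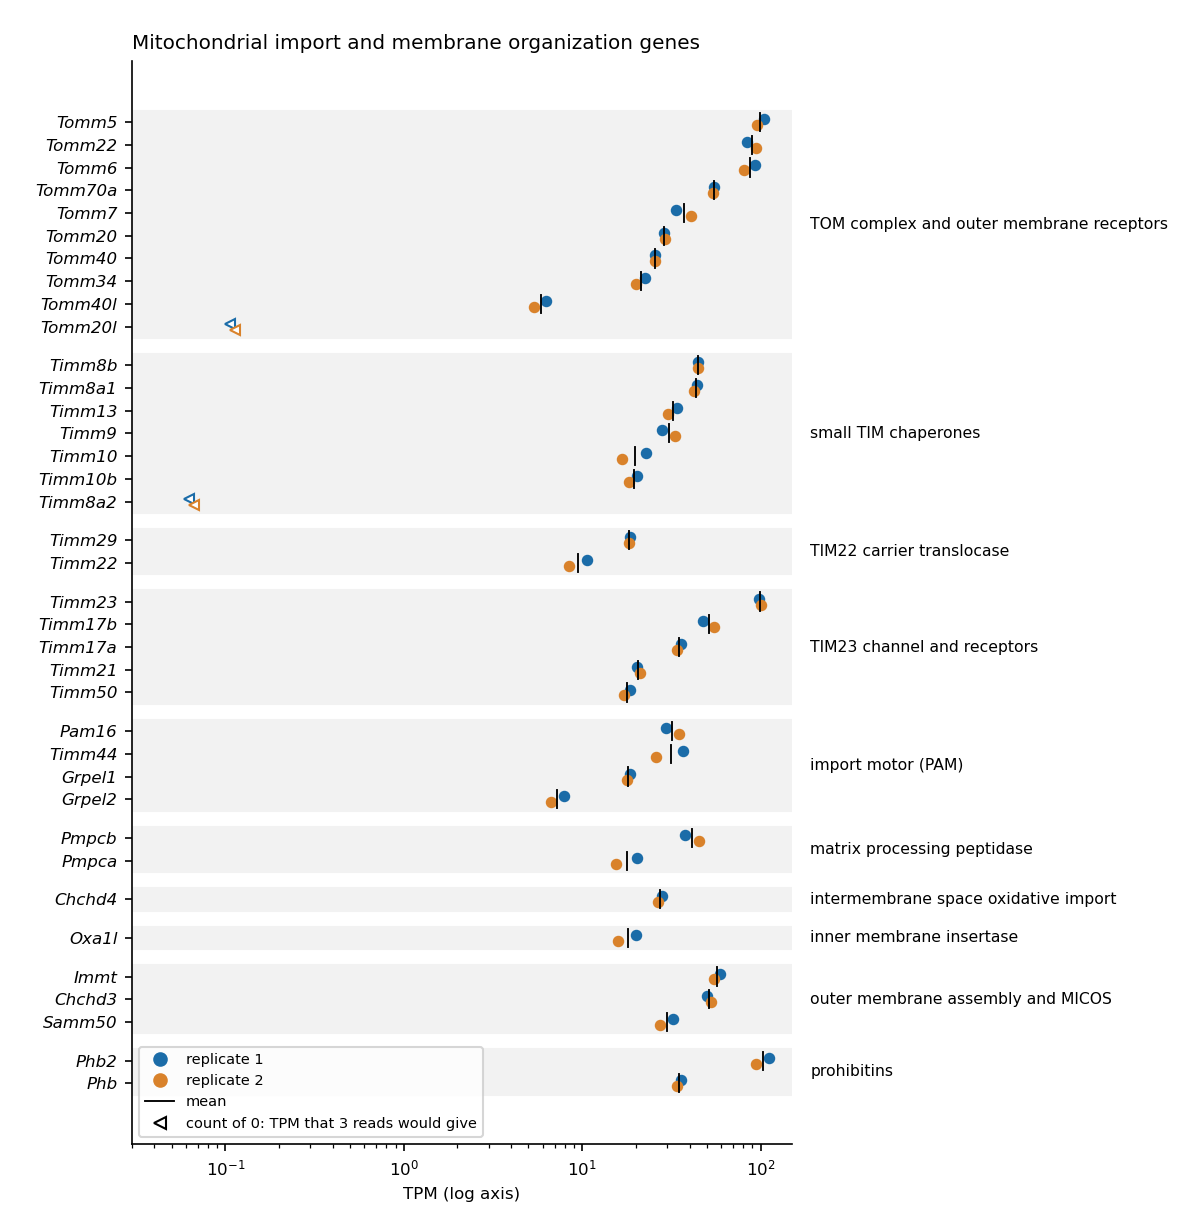
TPM (log axis) of the 37 genes in replicate 1 (blue) and replicate 2 (orange), grouped by role, with the mean as a black tick. Tomm20l and Timm8a2 have a count of 0 and are drawn as open triangles at the TPM that 3 reads would give; all other genes lie between 5.39 and 111.2 TPM.

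In the outer membrane, the small subunits and the central receptor of the TOM complex stood above the pore itself. Tomm5, a small subunit next to the pore (chromosome 4, 45105208 to 45108114, minus strand), was at 103.87 and 95.89 TPM in replicates 1 and 2. Tomm22, the central receptor that holds the complex together, was at 83.89 and 94.33. Both were above Tomm40, the channel-forming barrel, in each library (25.55 and 25.59 TPM). Tomm6, another small subunit, was at 86.8 ± 8.82 TPM, and Tomm7, the third, at 37.2 ± 5.33. Of the presequence and carrier receptors, Tomm70a (54.6 ± 0.33 TPM) exceeded Tomm20 (28.75 and 29.06) in both libraries. Tomm34, a cytosolic co-chaperone of import, was at 21.3 ± 1.89 TPM.

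Each of the TOM receptor Tomm20 and the pore Tomm40 has a paralog, and the paralogs differed in level. Tomm40l was at 6.31 and 5.39 TPM, so that Tomm40 was 4.05-fold and 4.75-fold higher in replicates 1 and 2. Tomm20l (ENSMUSG00000021078.4, chromosome 12, 71111428 to 71123221, plus strand) was at a count of 0 in each library; 3 reads, the limit a count of 0 allows, would be worth 0.106 and 0.113 TPM. Against that limit, Tomm20 (chromosome 8, 126930667 to 126945844, minus strand) was at least 272-fold higher in replicate 1 and at least 257-fold higher in replicate 2. The 3' end of Tomm20l overlaps that of Timm9 on the other strand by 49 bases, and Timm9 had 1278 and 1365 expected counts. The 250 bases before the RefSeq start of each gene (GRCm38.p6) are shown because the pair differs in CpG number, 15 for Tomm20 and 7 for Tomm20l. Whether CpG number goes with level was not tested, and Tomm5, at 103.87 and 95.89 TPM, has 5 in that window. Capitals mark each CpG, and the sequences run 5' to 3' on the strand of the gene, chr8:126945922-126946171 (minus) for Tomm20 and chr12:71111178-71111427 (plus) for Tomm20l.
Tomm20: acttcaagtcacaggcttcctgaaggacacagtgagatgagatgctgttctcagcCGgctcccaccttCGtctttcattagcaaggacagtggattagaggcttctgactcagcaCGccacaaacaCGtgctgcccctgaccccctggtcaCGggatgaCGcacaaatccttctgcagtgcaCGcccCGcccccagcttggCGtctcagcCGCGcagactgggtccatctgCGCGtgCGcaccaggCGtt
Tomm20l: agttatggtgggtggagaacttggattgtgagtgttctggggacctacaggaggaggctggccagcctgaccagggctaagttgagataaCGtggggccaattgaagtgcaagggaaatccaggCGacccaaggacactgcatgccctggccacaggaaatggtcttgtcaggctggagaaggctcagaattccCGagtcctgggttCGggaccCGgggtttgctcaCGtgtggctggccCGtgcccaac

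The small TIM chaperones, which guard hydrophobic proteins on their way through the intermembrane space, lay between 16.68 and 44.84 TPM apart from Timm8a2. Timm8b was at 44.31 and 44.84 TPM and Timm8a1 at 44.26 and 42.43, so these homologs differed by 1.03-fold on average (SD 0.04). Timm13, the partner of Timm8 proteins, stood at 32.1 ± 2.38 and Timm9 at 30.7 ± 3.69 TPM. Timm10, which joins Timm9 in a ring, was at 22.83 and 16.68 TPM, and Timm10b, which docks that ring to TIM22, at 20.42 and 18.41. Timm10 was thus the higher of this pair in replicate 1 and the lower in replicate 2, and the pair cannot be ordered. Timm8a2 (ENSMUSG00000071229.3, chromosome 14, 122034674 to 122038420, plus strand) was also at 0 in each library, where 3 reads would be worth 0.062 and 0.067 TPM. Timm8a1 was at least 710-fold and at least 634-fold higher than that limit.

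The inner membrane machines were headed by the TIM23 channel. Timm23, the channel subunit that names the complex (chromosome 14, 32180162 to 32201898, minus strand), was at 98.33 and 101.07 TPM, about the level of the highest TOM subunits. Its partner Timm17 is encoded by a pair of paralogs: Timm17b was at 47.76 and 55.1 TPM and Timm17a at 35.72 and 33.83. Timm17b was therefore higher in both libraries, by 1.34-fold and 1.63-fold at the gene level. Timm21, which links TIM23 to the TOM side and the respiratory chain, was at 20.6 ± 0.55, and Timm50, the presequence receptor, was the lowest at 18.59 and 17.09 TPM. In the TIM22 carrier translocase, the channel Timm22 stood at 10.59 and 8.44 TPM and the subunit Timm29 at 18.46 and 18.2. Timm22 was under Timm29 in both libraries.

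Motor, peptidase and insertase members were at moderate levels. Pam16, which restrains the J protein of the motor, was at 29.44 and 34.7 TPM, and Timm44, which tethers the motor to the channel, at 36.62 and 26.0. The order of these genes was opposite in the libraries. Grpel1, a nucleotide exchange factor of the mitochondrial Hsp70, was at 18.5 and 17.85 TPM and exceeded its paralog Grpel2 (7.89 and 6.66 TPM) by 2.35-fold and 2.68-fold. Of the matrix processing peptidase, the catalytic subunit Pmpcb was at 37.86 and 45.1 TPM and the substrate-binding subunit Pmpca at 20.38 and 15.46. Pmpcb was thus higher by 1.86-fold and 2.92-fold at the gene level. Chchd4, the oxidoreductase that folds cysteine-rich proteins in the intermembrane space, was at 27.92 and 26.6 TPM. Oxa1l, which inserts proteins made on mitochondrial ribosomes, was at 20.13 and 15.93.

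Of the membrane organization genes, Phb2, Immt and Chchd3 were among the higher members, while Phb and Samm50 lay nearer the middle. Immt, the core of the MICOS complex at crista junctions, was at 59.51 and 55.09 TPM, and its partner Chchd3 at 50.07 and 52.54. Samm50, which inserts barrel proteins into the outer membrane and binds MICOS, was at 32.35 and 27.23, under both. The prohibitins form rings of alternating Phb and Phb2 in the inner membrane. Phb2 (ENSMUSG00000004264.13, chromosome 6, 124712336 to 124716950, plus strand) was at 111.2 and 94.64 TPM and Phb at 35.63 and 33.93. Phb2 RNA was higher by 3.12-fold and 2.79-fold at the gene level, or 2.96 ± 0.24. That SD covers the libraries only, not the transcripts counted or the sequence that Phb shares with other genes (both below).

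**Figure D2:**
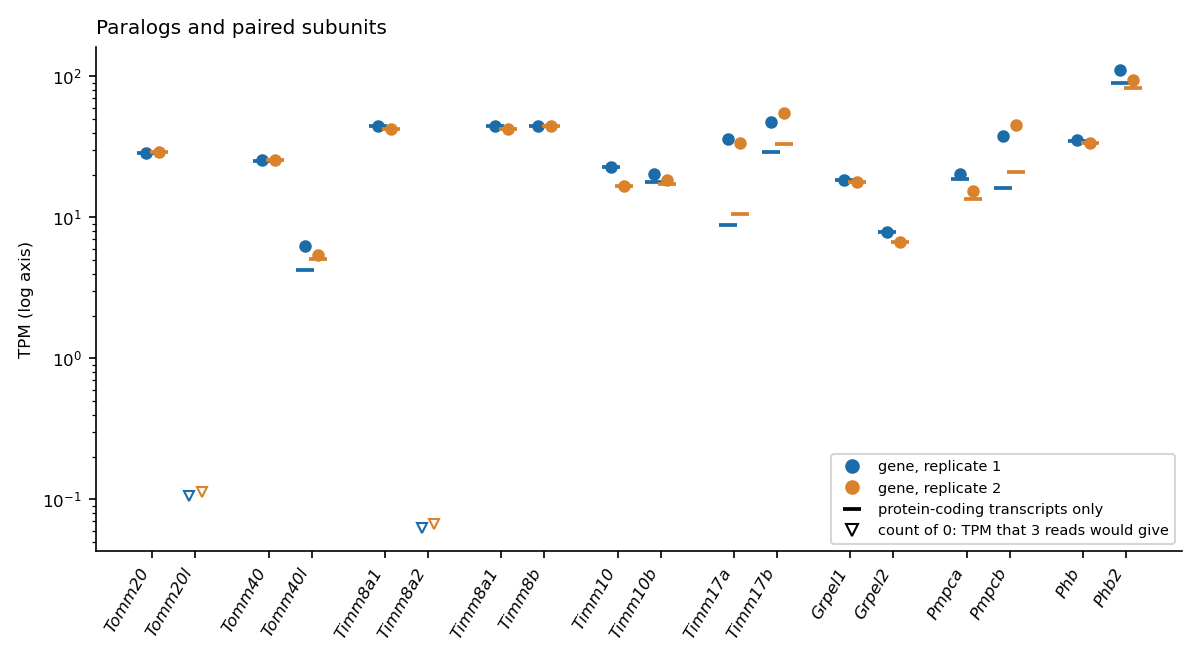
TPM (log axis) of both genes of each pair in replicate 1 (blue) and replicate 2 (orange): points give the whole gene, dashes its protein-coding transcripts alone, and open triangles the TPM that 3 reads would give for a count of 0. Tomm20l and Timm8a2 fall far under their paralogs, and the dashes of Timm17a and Pmpcb fall well under their points.

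Some of these levels rested on short transcripts that are annotated as not coding for protein. A retained intron transcript is one that keeps an intron and is not annotated as coding. Of the 35 members with a value, 13 have a single transcript in the annotation, and protein-coding transcripts took 90% or more of the TPM in both libraries in 23. By the mean of both libraries, the transcript with the largest share of TPM was protein-coding in 32 members. In Timm17a, Pam16 and Timm44 it was a retained intron transcript. Replicate 1 alone differed for Timm44 and Pmpcb. There a protein-coding transcript led in Timm44 (35.74% against 34.92%), and a retained intron transcript led in Pmpcb (50.4% against 42.93%). Protein-coding transcripts took under 50% of the TPM in both libraries in 4 members, namely Timm17a, Timm44, Pmpcb and Pam16.

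Timm17a showed this most. Its retained intron transcript Timm17a-204, of 565 bases, took 75.2% of the gene's TPM in replicate 1 and 68.8% in replicate 2. By expected counts the order was the reverse: the coding transcript Timm17a-201, of 7280 bases, held 54.4% and 55.5% of the reads but only 6.37% and 6.59% of the TPM. The protein-coding transcripts of Timm17a summed to 8.88 and 10.6 TPM, and those of Timm17b to 29.3 and 32.9. Counted this way, Timm17b exceeded Timm17a by 1.71 and 1.63 on the log2 scale, against 0.42 and 0.70 for whole genes. This scale also rests on short transcripts. Timm17b-202, of 438 bases, gave 20.8 and 26.8 TPM from 16.9% and 22.7% of the reads of Timm17b. Timm17a-203, of 468 bases, gave 6.6 and 8.32 TPM from 7.27% and 9.65% of the reads of Timm17a. In Pmpcb, the retained intron transcripts Pmpcb-208 and Pmpcb-203, of 400 and 277 bases, took 50.4% and 3.66% of the TPM in replicate 1 and 23.8% and 20.0% in replicate 2. The protein-coding transcripts of Pmpcb were at 16.3 and 21.0 TPM and those of Pmpca at 18.6 and 13.6. On that scale the peptidase subunits had no fixed order, with Pmpca higher in replicate 1 and Pmpcb higher in replicate 2. Timm44 and Pam16 came to 10.9 ± 3.10 and 14.5 ± 1.95 TPM of protein-coding transcripts. Phb2 kept 86.6 ± 5.42 and Timm23 84.0 ± 0.26 TPM, and Tomm5, with 99.9 ± 5.64, ranked first on that scale.

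**Figure D3:**
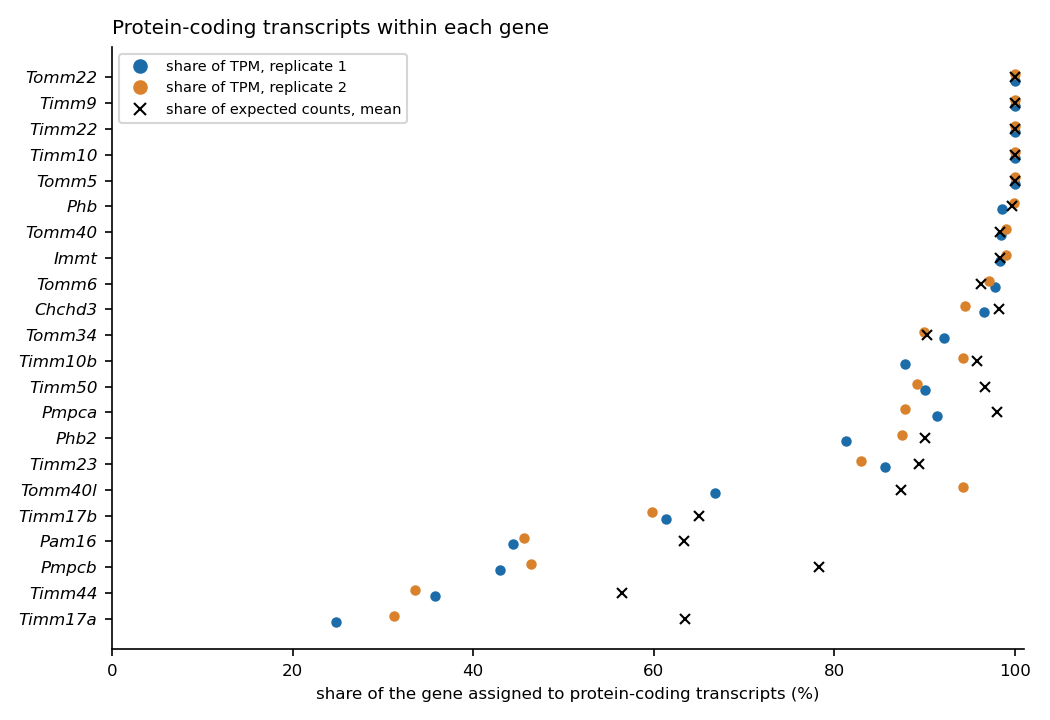
Share of each gene assigned to protein-coding transcripts (%), for the 22 members with several transcripts and a value: coloured points are shares of TPM in replicates 1 and 2, and crosses are the mean share of expected counts. Timm17a, Timm44, Pmpcb and Pam16 lie under 50% by TPM and above it by expected counts, and Tomm40l differs most between the libraries.

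The split among transcripts differed between the libraries in some members. In 7 of them the share of a transcript differed by 10 percentage points or more (Tomm40l, Pmpcb, Timm10b, Timm22, Pmpca, Timm44 and Timm9). The coding transcript Tomm40l-202 had 0% of the gene's TPM in replicate 1 and 32.3% in replicate 2. In 11 of the 22 members with several transcripts, the libraries differed by under 5 points at every transcript.

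Near-identical sequence elsewhere in the genome touches the levels of 8 members, counting stretches of 300 bases or more at 95% identity or more between annotated transcripts. Reads that fit both places were divided by the authors' quantifier. Timm23 shares 1121 bases at 99.9% identity with Gm10273, which was listed at 28.5 and 31.9 TPM beside the 98.33 and 101.07 of Timm23. Phb shares 819 bases at 99.9% with the pseudogene Gm7666 (17.4 and 20.5 TPM) and 339 bases with a transcript of Fyb. Timm8a1 shares 612 identical bases with Gm9797 (10.1 and 17.0 TPM), and Tomm20 shares 435 bases at 99.5% with Gm14494 (39.0 and 48.1 TPM). Pam16 shares 534 identical bases with Gm9803 (3.37 and 6.26 TPM). The levels of these 5 members are uncertain by the reads that fit both places, which were not counted. A copy's TPM is per its own length, so expected counts compare better. Copies held 22.7% and 24.5% of the expected counts of Timm23 and its copies together in replicates 1 and 2. The share was 15.7% and 24.5% for Timm8a1, 7.67% and 9.27% for Tomm20, and 11.8% and 17.2% for Pam16. For Phb, Gm7666 held 734 and 809 expected counts beside 3180 and 2910. Fyb, identical over its 339 shared bases, held 1483 and 1065. With Fyb included the share for Phb was 41.1% and 39.2%, the largest of these 5 members. How many reads of Fyb fall in the shared bases was not counted. For Timm17a, Tomm22 and Grpel2 the copies were listed at under 2 TPM or had no row. In addition, 22 members overlap a gene on the opposite strand, from which reads cannot be told apart where strand was not used.

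The members' levels were set beside other nuclear genes for mitochondria. The 77 mitochondrial ribosomal protein genes had a median of 28.55 TPM (SD of the library medians 0.25), near the 30.73 of the members. The 93 nuclear genes of oxidative phosphorylation had a median of 79.2 TPM (SD of the library medians 2.79), and 35 of them reached 100 TPM in both libraries, against 0 of the 37 members. By the sum of TPM, members took 0.345% and 0.330% of the nuclear protein-coding total, ribosomal protein genes 0.696% and 0.665%, and oxidative phosphorylation genes 2.48% and 2.52%. Among 40 other genes of import, proteolysis and membrane dynamics, the median was 19.0 TPM (SD of the library medians 2.34); in both libraries all 40 reached 1 TPM and 28 reached 10 TPM. The highest of these were Minos1, a small MICOS subunit, at 216 ± 5.52 TPM and Hspa9, the Hsp70 of the import motor, at 106 ± 4.69. The lowest were Xpnpep3, an aminopeptidase, at 3.30 TPM and Mtx3, a metaxin of the outer membrane, at 2.40.

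**Figure D4:**
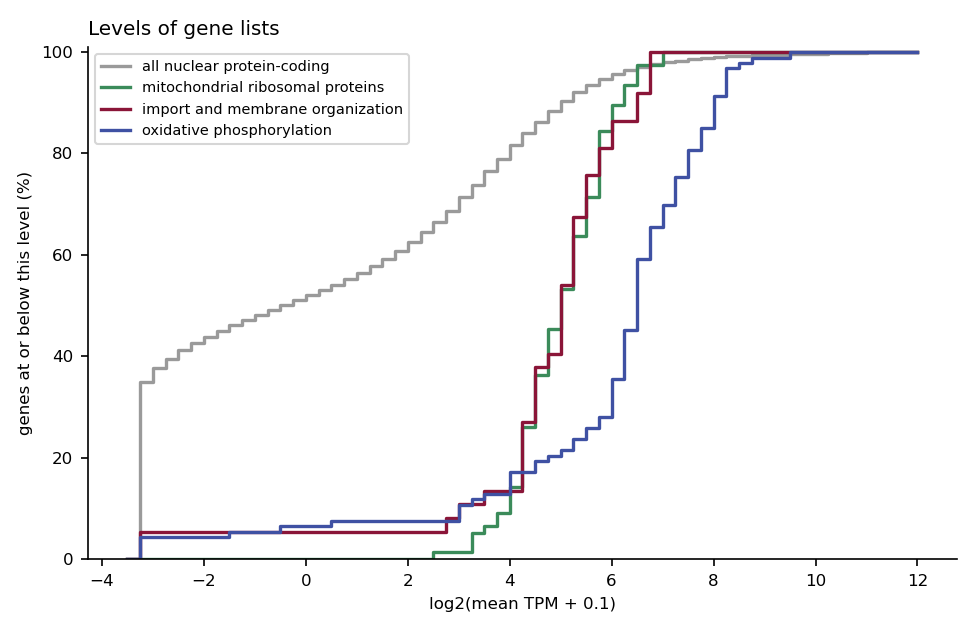
Cumulative percent of genes at or below a level, log2(mean TPM + 0.1), for the 37 import and membrane organization genes, 77 mitochondrial ribosomal protein genes, 93 oxidative phosphorylation genes and all nuclear protein-coding genes. From a log2 level of 4.25 upward the members' curve runs near that of the ribosomal protein genes and to the left of oxidative phosphorylation, while under it the members and oxidative phosphorylation genes lie close together; the step at the far left is genes at 0.

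Between the libraries, the members differed little. For each gene, a two-sided exact binomial test asked whether the split of its reads departed from the ratio of TMM-scaled library sizes. P-values were adjusted by Benjamini-Hochberg over the 14304 genes tested. A call needed both an adjusted p under 0.05 and a log2 ratio of at least 1 in either direction. Such a call separates a pair of libraries, not conditions, and its p-value allows for counting error only. Of the 35 members tested, 0 were called, where 7.66% of all genes were. Without the ratio limit, 19 of 35 had an adjusted p under 0.05, and 19 an unadjusted p under 0.05, against 59.0% of all genes by adjusted p. The count of calls was also 0 with DESeq2 size factors. No member passed an absolute log2 ratio of 0.5, which 21.6% of all genes did. Since low genes vary more, the 32 members of 10 TPM or more are better read against the 5764 genes at that level. There, 0 of 32 members were called against 0.607%, 18 of 32 had an adjusted p under 0.05 against 65.7%, and 0 passed a log2 ratio of 0.5 against 3.63%. The members' shares on the ratio scale are thus close to those of genes at their level.

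The direction of the small differences was mixed. Of the 35 members, 16 were higher in replicate 2 and 19 in replicate 1, with a median log2 ratio (replicate 2 over replicate 1) of -0.01. By the ratio of deposited TPM, and by counts scaled to nuclear protein-coding reads, 12 were higher in replicate 2 and 23 in replicate 1, while the median of all genes shifted by -0.05 and -0.04. Timm10 had the largest difference, with 782 and 533 expected counts and a log2 ratio of -0.40 (exact binomial test, adjusted p = 2.22e-06). Timm44 followed at -0.35, with 2231 and 1577 expected counts (exact binomial test, adjusted p = 8.82e-13). Tomm7 had the largest difference in the other direction, with 2050 and 2338 expected counts and a log2 ratio of 0.34 (exact binomial test, adjusted p = 8.11e-14). The peptidase subunits differed in opposite directions, with log2 ratios of 0.33 for Pmpcb and -0.31 for Pmpca. Pam16, at 0.31, and Oxa1l, at -0.30, were of similar size. Of the 40 other import and dynamics genes, 0 were called, where 7.66% of all genes were, and 26 were lower in replicate 2. An absolute log2 ratio of 0.5 was passed by 4 of them, against 21.6% of all genes and 3.63% of those at 10 TPM or more. These were Immp2l, Oma1, Spg7 and Dnajc11 (named after their values were seen), all lower in replicate 2. Immp2l and Oma1 were under 10 TPM.

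**Figure D5:**
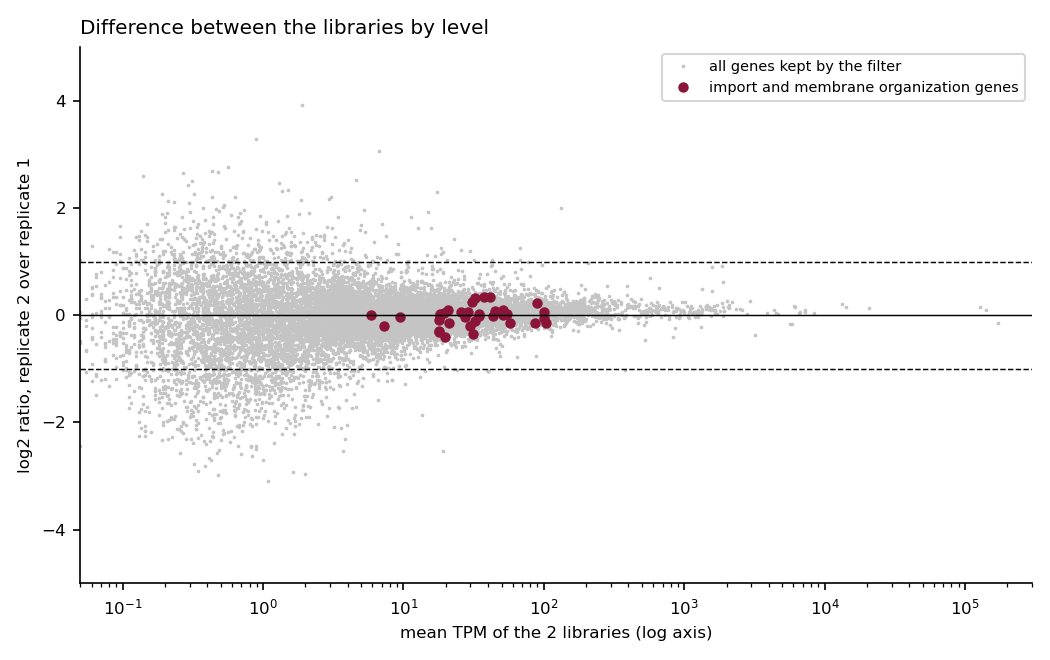
Log2 ratio of replicate 2 over replicate 1 from TMM-scaled expected counts, against mean TPM (log axis), for all genes kept by the filter (grey) and the 35 members tested (red); dashed lines mark a log2 ratio of 1 in either direction. All members lie between -0.40 and 0.34, where genes of their level cluster.

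At their start sites, members held an ETS-like motif and a close divergent neighbour more often than the average gene, described here without a test. RefSeq promoters (GRCm38.p6, 250 bases before to 50 after the start) matched 33 of the 37 members, all but Tomm7, Tomm40l, Timm21 and Grpel2. The letters CCGGAAGT, on either strand, stood in 8 of the 33 (24.2%), against 5.94% of 16522 protein-coding genes and 11.3% of the 4362 with a mean of 10 TPM or more. These 8 were Phb2, Pmpcb, Timm10, Timm10b, Timm23, Timm29, Timm8a2 and Tomm70a. The letters GCGCATGCG, which are NRF1-like, stood in 1 of 33 (3.03%, Timm13), against 2.74% and 5.41%. No member holds both motifs. Levels of members with and without a motif were not compared. Those with the ETS-like letters include Phb2 and Timm23, at 102.92 and 99.7 TPM, and Timm8a2, with an expected count of 0. Tomm5, Tomm22 and Tomm6, the others of the 5 highest members, hold neither motif. The 250 bases before the start of Timm8a2 (chr14:122034424-122034673, plus strand, 5' to 3') are shown because they hold the ETS-like letters in a member listed at 0. Capitals mark both copies, read on the opposite strand, which begin 55 and 11 bases before the start.
Timm8a2: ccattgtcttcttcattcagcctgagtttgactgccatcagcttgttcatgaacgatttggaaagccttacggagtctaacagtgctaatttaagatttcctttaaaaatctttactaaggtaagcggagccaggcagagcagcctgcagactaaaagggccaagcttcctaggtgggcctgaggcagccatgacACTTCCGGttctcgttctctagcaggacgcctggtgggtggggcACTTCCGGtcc

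A protein-coding gene on the opposite strand started within 1000 bases, pointing away, at 8 of the 37 members (21.6%), against 6.80% of all protein-coding genes and 12.3% of those of 10 TPM or more. All of these neighbours but Frs3 were at 8.9 TPM or more in both libraries. Sdhd, a membrane anchor of respiratory complex II, starts 98 bases from Timm8b and stood at 103.4 and 101.83 TPM, above the 44.31 and 44.84 of Timm8b. Emg1, a ribosome assembly methyltransferase, starts 158 bases from Phb2 and was at 84.4 ± 0.11 TPM. Tmem43 starts 157 bases from Chchd4 and was at 22.9 ± 0.86 TPM, against 27.3 ± 0.93 for Chchd4. Entr1 starts 23 bases from Pmpca and was at 20.7 ± 2.23 TPM, against 17.9 ± 3.48 for Pmpca. Parg, a poly(ADP-ribose) hydrolase, starts 51 bases from Timm23 and was at 17.0 ± 0.70 TPM, far under Timm23. Pqbp1, 88 bases from Timm17b, 2700049A03Rik, 164 bases from Timm9, and Frs3, 644 bases from Tomm6, were also lower than their neighbour, at 11.5, 9.55 and 0.195 TPM. A close divergent start came with a neighbour above the member only at Timm8b and Pmpca.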

How the data were processed

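Total RNA-seq of 2 libraries of 1 group was used as deposited. Per the deposited file lists, reads were quantified on mm10 with GENCODE M4, each library alone. Aligner, quantifier version, strandedness and layout of the reads: not given in the sources used here. The deposited columns are as follows, per the file headers: the expected counts estimate how many reads came from a gene or transcript, TPM and FPKM are abundances per effective length, the score columns are bounds of the authors' credibility interval, whose level is not given, and the percent column is each transcript's share of its gene's TPM, as deposited by the authors. TPM has a fixed total over all rows, so abundant mitochondrial RNA lowers it for every other gene.

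Members, lists and tests were chosen with earlier results of these data known. Symbols, positions and transcript types came from GENCODE M21 (GRCm38), which matched 42462 Ensembl rows (98.0%). Every member is named, with values per library for the 2 highest and the lowest of each role, both genes of a pair and the 3 largest differences. Of the partner genes, the 2 highest and 2 lowest are named. Of the granulocyte markers, Azu1 had no match. Expected counts were rounded, filtered with filterByExpr and scaled with TMM (edgeR 4.0.16, R 4.3.3), then compared by an exact binomial test (scipy 1.17.1), with DESeq2 1.42.0 size factors as an alternative. Ratios used a prior count of 2 and TPM pairs a pseudocount of 0.1. A count of 0 was given the TPM of 3 reads as its limit, which covers counting error only and is no bound where reads fit another gene. Copies were found with BLAST 2.17.0 among M21 transcripts. The test was tried on simulated counts that held counting error alone, so the trial does not cover other variation between libraries. Alternatives were another abundance estimate, scaling, filter, pseudocount and leaving out each library, and 2 were added after the data were seen. P-values measure how far the split of reads departs from the library ratio under counting error alone. They leave out any other variation between the 2 libraries, which may be technical. Protein sequences were not analysed here.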

Additional observations from a re-analysis of the deposited data

How the results depend on the processing

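The count of members at 10 TPM or more ranged from 30 to 35 over the alternatives, and the counts of 0 called members and of 0 members past a log2 ratio of 0.5 held in each. The median level of the members moved to 30.26 TPM with the posterior mean, to 31.31 over members of 1 TPM or more, to 76.08 when scaled over nuclear protein-coding genes, and ranged from 29.06 to 29.44 without replicate 1 or 2. It was 25.26 with protein-coding transcripts only, an alternative chosen after the data were seen, as was scaling by nuclear protein-coding reads. The number of all genes called was 3382 with no filter and 521 with counts divided by 4. Counting protein-coding transcripts only moved the mean log2 ratio of Timm17a over Timm17b from -0.56 to -1.67 and that of Pmpca over Pmpcb from -1.21 to -0.22. It also moved that of Phb over Phb2 from -1.56 to -1.32 and that of Tomm40 over Tomm40l from 2.11 to 2.42. The cause was not tested beyond the transcript shares given above. The log2 ratios of Tomm20 over Tomm20l and Timm8a1 over Timm8a2 depend on the pseudocount (8.18 and 8.76 with 0.1, 4.90 and 5.47 with 1), so the pairs are given as limits from 3 reads. No paired analysis was possible because there is 1 group. With 2 libraries, each SD rests on a single difference, and no result separates animals, cells and library preparation.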
